A study of Mus musculus with 24 samples.

Results

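Reactivation of mouse Th2 cells without drug was read from 1 pair of dual-colour arrays, 1 of unstimulated and 1 of reactivated cells, which are 2 of the 24 arrays of the series. The members were chosen by label alone: cells labelled Th2, treated with the vehicle DMSO, and hybridised on the same slide. The cells came from female C57BL/6 mice, were differentiated in vitro from naive T cells under Th2 conditions, and carried no genetic alteration in the labels. Each array set Cy3-labelled Th2 RNA against Cy5-labelled RNA of naive CD4+CD62L+CD25-CD44lo T cells from lymph nodes and spleens of female C57BL/6 mice, and the dyes were not swapped. The time in DMSO was given as 24 hr in the titles of both arrays and as 6 hr in their source names, so it is unknown here. The agent that reactivated the cells was not given in the labels. Th1 DMSO pairs labelled 6 hr and 24 hr, and a Th2 pair and a Th1 pair with 50 nM JQ1 for 6 hr, were used to show where the response differed. JQ1 is an inhibitor of BET bromodomain proteins.

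Th2 cells are the CD4+ helper cells that act against parasitic worms and in allergy. Their identity depends on the transcription factor GATA3 and on IL-4 signalling through STAT6, and their signature cytokines IL-4, IL-5 and IL-13 are encoded close together on 1 chromosome. A resting effector cell makes little cytokine mRNA. Engagement of the T cell receptor raises intracellular calcium and activates NFAT, AP-1 and NF-kB, which drive transcription of cytokines, surface receptors and growth genes, while genes of the resting and circulating state are shut down.

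There was 1 array per condition, so differences within the Th2 pair have no replicate and no test. They are reported as values on both arrays, as at least 2-fold higher or lower, and beside limma fits over several pairs. A ratio here is the log2 of Cy3 (Th2) over Cy5 (naive reference), a level is the log2 Cy3 intensity after normalization between arrays, and a difference is reactivated minus unstimulated. The Cy3 signal was well above background for 52% of the probes on the unstimulated and 50.4% on the reactivated array. The reference channel gave the one repeated measurement. Its difference between both arrays had an SD of 0.17 (log2) over 11631 genes, against a median of 0.18 over all 276 pairs of arrays. In the reference channel 59 of 13160 genes (0.448%) differed at least 2-fold between both arrays, 45 of them higher on the reactivated array, and 41 of these 45 were also at least 2-fold higher in Cy3. For those genes the ratio gives a smaller difference than Cy3 alone. Of the genes described here by their ratios, Cy3 alone gave a difference of 6.42 for Zbtb32, 6.42 for Rgs16, 5.14 for Bcl2a1d, 4.09 for Il24, 3.4 for Irf8 and 2.03 for Il2ra. It gave 3.715 for Tnfrsf4 and 4.625 for Ccl3. The origin of this shared signal was not tested. The spike-in control RNAs, added at fixed amounts, had a median ratio of -0.34 on the unstimulated and -0.77 on the reactivated array after normalization. All differences are therefore relative to the typical gene, whose median difference was -0.08 (IQR -0.59 to 0.4). That median became 0.36 when the spike-in RNAs set the zero point after loess.

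The labelled cell type was checked against marker lists. All 8 T cell markers were above background on both arrays, with a summed level of 17.88 in unstimulated and 16.94 in reactivated cells. Of 9 Th2 markers, 7 were above background in unstimulated cells and all 9 in reactivated cells, and their summed level went from 13.08 to 15.22. Gata3, the lineage factor, had a ratio of 1.95 and 2.64, above the -0.52 to 0.55 of the 4 Th1 DMSO arrays. The 8 Th1 markers were above background on both arrays, at a summed level of 9.85 that became 13.35. All 8 naive T cell markers were above background, and their summed level went from 15.98 to 13.35. Of 5 Th17 markers 1 was above background in unstimulated and 3 in reactivated cells, and of 4 regulatory T cell markers 4 and 3. The 4 natural killer cell markers Ncr1, Klrb1c, Klra8 and Klrk1 were not well above background on either array. Of 3 CD8 T cell markers, Cd8a was not well above background on either array, and Cd8b1 and Gzmk were above it on both. Of 5 mast cell and basophil markers, Fcer1a, Ms4a2, Cpa3 and Mcpt8 were not well above background on either array, and Kit was so on the reactivated array. All 6 B cell markers were above background, with a summed level of 12.26 and 11.87. Of 7 myeloid markers, 2 were above background in unstimulated and 5 in reactivated cells, with a summed level of 14.24 and 13.91. The part of such cells in the results was not tested. In bulk RNA, fewer cells of a type and less RNA per cell cannot be told apart.

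Many of the measured genes differed at least 2-fold between both arrays. Of 13160 genes above background on at least 1 array, 1521 (11.6%) were at least 2-fold higher and 1839 (14%) at least 2-fold lower in reactivated cells. More genes were lower than higher at 2-fold, but the large differences were mostly upward. At 8-fold 194 genes were higher and 70 lower, and at 16-fold 61 were higher and 8 lower. Among the measured genes, 545 were above background only on the reactivated array and 693 only on the unstimulated array. The balance of higher and lower genes depended on the scaling. With the spike-in RNAs as the zero point after loess, 2659 genes were higher and 959 lower.

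**Figure D1:**
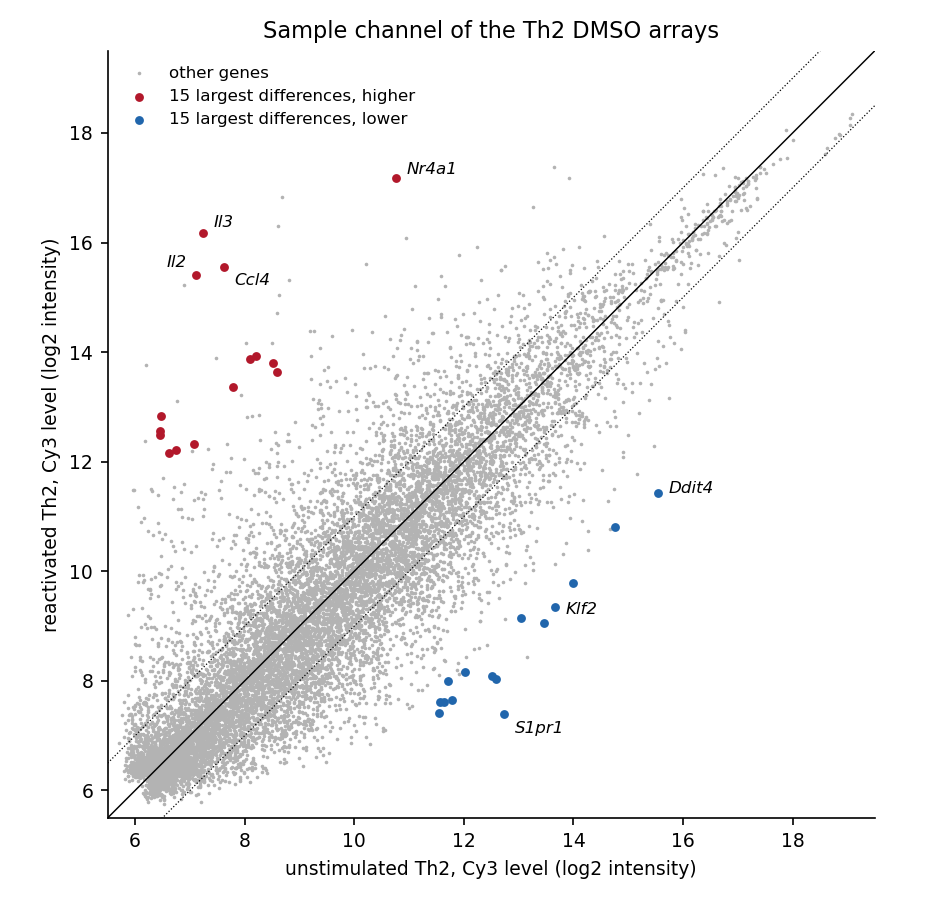
Level of each measured gene in the sample channel (Cy3, log2 intensity) in unstimulated (x axis) and reactivated (y axis) Th2 cells with DMSO, 1 array each. Red and blue points are the 15 genes with the largest differences of the ratio in each direction among those above background on both arrays, the solid line marks equal levels, and the dotted lines mark 2-fold. The 15 highest genes lie between 6.45 and 10.76 in unstimulated cells and between 12.16 and 17.17 in reactivated cells.

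Of the 15 genes with the largest upward differences among those above background on both arrays, 7 were in the cytokine and chemokine lists and 3 in the list of immediate early factors. Il3, a growth factor for mast cells and basophils, had a ratio of 0.96 in unstimulated and 8.42 in reactivated cells, which is 177-fold higher. Its Cy3 level went from 7.24 to 16.17. Ccl4, an inflammatory chemokine, had ratios of 1.8 and 9.2 (169-fold higher). Il3 was within 2-fold of the naive reference before reactivation, and Ccl4 was already above it. Csf2, which encodes GM-CSF, had ratios of 0.48 and 6.77, and Il2, the T cell growth factor, 1.36 and 7.36. For Il2 the difference was 6 by ratio and 8.3 by Cy3 alone, since its reference signal was higher by 2.31 on the reactivated array. The T cell receptor response factors Nr4a1 (-1.97 and 3.69), Egr2 (-1.59 and 4.05) and Egr1 (-2.53 and 2.51) started below the naive reference and ended above it. The rest of the 15 were Bdh2, a short-chain dehydrogenase (0.45 and 6.43), Spry1, an inhibitor of Ras signalling (1.37 and 7.07), Il9 (0.48 and 6.15), Ifng (0.65 and 6.2), Pdcd1lg2, the PD-1 ligand PD-L2 (0.88 and 6.36), Crtam, an adhesion receptor of activated lymphocytes (-2.33 and 3.02), Areg, the growth factor amphiregulin (0.83 and 5.96), and Trmt61a, a tRNA methyltransferase (-3.22 and 1.86). The limma fit of reactivation over the 3 DMSO pairs includes the Th2 pair that picked these 15 genes. It is thus no separate support for them. In that limma fit 14 of the 15 rose, with Benjamini-Hochberg adjusted p from 2.61e-05 to 0.0286. The exception was Il9, at an adjusted p of 0.113, which was near 0 in both Th1 pairs.

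Of the 15 genes with the largest downward differences among those above background on both arrays, 5 were in the list of quiescence and homing genes. S1pr1, the receptor that lets T cells leave lymphoid organs, had a ratio of -0.68 in unstimulated and -6.03 in reactivated cells, which is 40.8-fold lower. Klf2, the transcription factor that keeps S1pr1 and homing receptors on, had ratios of -0.89 and -4.99 (17.2-fold lower). Pik3ip1, an inhibitor of PI3 kinase, had ratios of -0.58 and -4.87, and Tbc1d10c, an inhibitor of Ras and calcineurin, -0.77 and -4.91. All 4 were within 2-fold of the naive level in unstimulated Th2 cells and far below it in reactivated cells. Fut7, a fucosyltransferase that builds selectin ligands, was instead well above the naive level at 4.33 and came down to 0.21, and its 2 most distant probes gave differences of -4.12 and -1.92. Ddit4, an inhibitor of mTORC1, had ratios of 0.22 and -3.68, and Tsc22d3, a glucocorticoid-induced regulator, -1.35 and -5.14. The others were Cyp2s1, a cytochrome P450 (1.54 and -3), Il16, a chemoattractant cytokine (-1.09 and -5.15), Tspan32, a tetraspanin (-0.45 and -4.47), Acss1, a mitochondrial acetyl-CoA synthetase (-0.45 and -4.43), Ripor2 (-2.19 and -6.15, with another probe differing by only -0.56), St8sia4, a polysialyltransferase (0.56 and -3.31), Tecpr1, an autophagy protein (-0.32 and -4.12), and Pdlim4, a cytoskeletal adaptor (-0.58 and -4.36). Over the 3 DMSO pairs 14 of the 15 fell by limma with Benjamini-Hochberg adjusted p from 0.00016 to 0.00118. By that limma fit Pdlim4 did not pass (adjusted p = 0.136). Here too the fit includes the Th2 pair that picked these 15 genes, so it is no separate support for them.

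**Figure D2:**
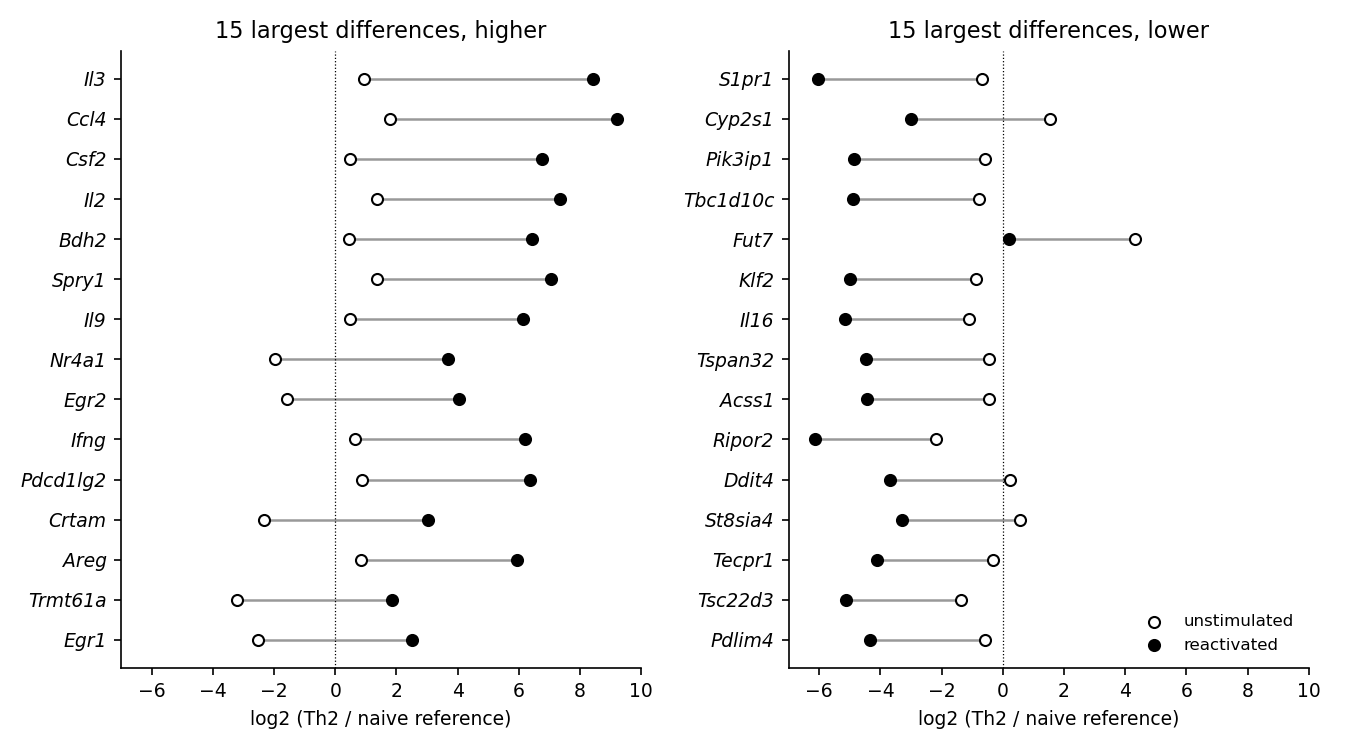
Log2 ratio of Th2 over naive reference (x axis) on the unstimulated (open points) and reactivated (filled points) array for the 15 genes with the largest differences in each direction among those above background on both arrays, 1 array each. The upward differences span 5.04 to 7.47 and the downward ones -3.77 to -5.35.

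Some genes were above background in Cy3 on only 1 of both arrays, so their fold is a lower bound in the Cy3 channel, the level of the bright array against the higher of the lowest detectable level and the gene's own level on the other. It is not a bound on the difference of the ratio, which also reads the reference and can be smaller. Il31, an itch-inducing cytokine of Th2 cells, was at least 190-fold higher in reactivated cells (Cy3 levels of 6.2 and 13.77). Mst1r, the receptor of macrophage-stimulating protein, was at least 73.2-fold higher, and Slc13a3, a dicarboxylate transporter, at least 41.9-fold. Olr1, a scavenger receptor for oxidised LDL, was at least 41.7-fold higher, and the cytokine gene Il17f at least 35.9-fold. By ratio the differences were 5.78 for Il31, 5.63 for Mst1r, 3.6 for Slc13a3, 5.65 for Olr1 and 4.54 for Il17f. The ratio thus gave 54.8-fold for Il31 and 12.1-fold for Slc13a3, whose reference signals were higher by 1.79 and 1.91 on the reactivated array. All 5 were also higher in both Th1 DMSO pairs, by 2.87 to 5.48 (log2 ratio). Bounds in the other direction were small. Abcg3, a transporter, was at least 3.96-fold lower, and Tmprss13, Plekhh3, Grb7 and Art4 at least 3.9-, 3.84-, 3.8- and 3.49-fold lower.

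The response of Th2 cells with 50 nM JQ1, on another slide, was close to that of the DMSO pair gene by gene, and fewer of its genes passed 2-fold in the Th1 pairs. Of the 1521 genes at least 2-fold higher in the Th2 DMSO pair, 1242 (81.7%) were also higher with 50 nM JQ1, 881 (57.9%) in Th1 cells at 6 hr and 986 (64.8%) in Th1 cells at 24 hr. For comparison, 10.5%, 8.19% and 9.36% of all measured genes were at least 2-fold higher in these pairs. Of the 1839 genes at least 2-fold lower, 1473 (80.1%), 876 (47.6%) and 1194 (64.9%) were lower in the same 3 pairs, against 12.7%, 8.4% and 11.8% of all measured genes. Of the genes each pair had at 2-fold itself, the Th2 DMSO pair held 91.6% of the higher and 89.9% of the lower ones with 50 nM JQ1, 84.3% and 81.7% for Th1 at 6 hr, and 80.4% and 77.5% for Th1 at 24 hr. No gene was at least 2-fold in opposite directions in both Th2 pairs. Across genes, which are not independent replicates, the differences had r = 0.97 with the 50 nM JQ1 pair (13160 genes, slope 0.91), r = 0.86 with Th1 at 6 hr (slope 0.66) and r = 0.87 with Th1 at 24 hr (slope 0.77). The Th1 6 hr pair lay on the same slide as the Th2 DMSO pair and the Th1 24 hr pair on a different one. These pairs share no array, but all used a naive reference of the same description. Since the time of the Th2 pair is unknown and the JQ1 pair had 6 hr, time and dose cannot be told apart in the remaining difference. Over the 3 DMSO pairs limma called 2746 of 12526 genes higher (21.9%) and 3636 lower (29%) at an adjusted p below 0.05. Of the genes at least 2-fold higher in the Th2 pair, 1399 of 1505 tested were among them, and of those lower 1745 of 1828. That fit includes the Th2 pair itself.

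The 9 genes of the Th2 cytokine list were at least 2-fold higher in reactivated cells, with a median difference of 3.78 against -0.08 for all genes. Of these, 4 were measured only because they were above background on the reactivated array, so they had to be higher. The other 5, above background on both arrays, were higher too (median 4.5). The shares of all measured genes to set beside the counts of this and the other lists are 11.6% higher and 14% lower at 2-fold, and 21.9% and 29% by limma. Il4, which encodes the cytokine that induces and maintains the Th2 state, had a ratio of 3.52 in unstimulated and 8.03 in reactivated cells (22.6-fold higher), and its Cy3 level went from 9.26 to 14.38. It was far above the naive reference already before reactivation. Il13, an inducer of mucus and airway responses, had ratios of 1.07 and 4.85 (difference 3.78 by ratio and 4.7 by Cy3). Il5, the growth factor of eosinophils, was above background only in reactivated cells, with ratios of 0.09 and 3.66, and was at least 12.8-fold higher. Il9, a mast cell growth factor, was 51-fold higher, and Areg 35-fold. Il24, an IL-10 family member, had ratios of -0.26 and 2.83. Il6 and Il10 were above background only in reactivated cells, at least 3.95-fold and 3.78-fold higher. By limma 7 of the 9 rose over the 3 DMSO pairs, and the exceptions were Il9 and Il5 (adjusted p = 0.0745). Gata3 itself differed by 0.69, less than 2-fold.

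Th1 cells also had more of several of these transcripts after reactivation. Il4 differed by 2.96 at 6 hr and 4.3 at 24 hr in Th1 cells, from ratios of 0.12 and 0.2 to 3.07 and 4.5, so reactivated Th1 cells stayed below the 8.03 of reactivated Th2 cells. Il13 differed by 3.48 and 4.17 and reached 3.71 and 4.6 in Th1 cells, against 4.85 in Th2 cells. Il5 and Il9 were different. Il5 differed by 0.43 and 0.54 in the Th1 pairs, and Il9 by 0.45 and 0.42. Il9 was well above background on only 2 of the Th1 DMSO arrays. Its Cy3 levels there were 5.99 to 6.49, against a lowest detectable level of 6.1 on the Th2 arrays, so its Th1 values lie near that limit. The difference between the Th2 and Th1 responses, fitted by limma over the 3 DMSO pairs, was 3.08 (SE 0.26, adjusted p = 0.0105) for Il5 and 5.24 (SE 0.25, adjusted p = 0.00508) for Il9. It was 0.87 (SE 0.52, adjusted p = 0.619) for Il4 and -0.04 (SE 0.35, adjusted p = 0.982) for Il13, which does not show that the responses of these genes were equal. That fit had 1 residual degree of freedom and was helped by the pooled variance of all genes. Its residual came from the difference between the Th1 pairs of 6 hr and 24 hr. The Th2 response is 1 pair, so the SE and adjusted p of this fit hold no spread of Th2 cells.

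Promoter sequences were printed for 4 Th2 cytokine genes, for Il3, Il2 and Nr4a1 as genes with large upward differences, and for Klf2 as one with a large downward difference, because results on these genes are described here. They are the 250 bases before the start of each gene, 5′ to 3′ on the gene's own strand, from RefSeq on GRCm38.p6. Capitals mark matches to TGGAAA (the core of NFAT sites, both strands, so TTTCCA too), TGANTCA (AP-1), TGACGTCA (CRE), GGGCGG (GC box, both strands, so CCGCCC too) and TATAAA (bound by the TATA-binding protein, gene strand). None of these motifs overlap another in the sequences shown.
Il4 (chr11:53618666-53618915, minus strand): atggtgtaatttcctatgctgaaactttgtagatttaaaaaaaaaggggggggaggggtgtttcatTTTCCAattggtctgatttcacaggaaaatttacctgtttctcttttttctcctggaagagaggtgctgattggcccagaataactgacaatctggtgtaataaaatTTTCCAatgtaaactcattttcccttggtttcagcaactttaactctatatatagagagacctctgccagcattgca
Il5 (chr11:53720544-53720793, plus strand): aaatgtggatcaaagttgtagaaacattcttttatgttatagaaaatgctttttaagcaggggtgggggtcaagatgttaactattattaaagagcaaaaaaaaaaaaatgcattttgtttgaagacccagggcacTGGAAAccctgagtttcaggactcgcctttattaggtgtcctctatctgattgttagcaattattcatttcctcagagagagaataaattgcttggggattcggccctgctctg
Il13 (chr11:53634703-53634952, minus strand): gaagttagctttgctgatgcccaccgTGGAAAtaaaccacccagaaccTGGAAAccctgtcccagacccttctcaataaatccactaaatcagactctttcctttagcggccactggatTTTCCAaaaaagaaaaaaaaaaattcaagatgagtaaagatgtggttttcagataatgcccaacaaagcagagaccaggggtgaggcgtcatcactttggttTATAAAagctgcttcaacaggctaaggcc
Il9 (chr13:56482258-56482507, minus strand): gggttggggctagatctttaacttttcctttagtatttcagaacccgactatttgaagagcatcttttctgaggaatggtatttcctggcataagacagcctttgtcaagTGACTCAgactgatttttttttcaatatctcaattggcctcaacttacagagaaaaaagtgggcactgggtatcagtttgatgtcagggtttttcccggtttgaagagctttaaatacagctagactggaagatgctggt
Il3 (chr11:54267280-54267529, minus strand): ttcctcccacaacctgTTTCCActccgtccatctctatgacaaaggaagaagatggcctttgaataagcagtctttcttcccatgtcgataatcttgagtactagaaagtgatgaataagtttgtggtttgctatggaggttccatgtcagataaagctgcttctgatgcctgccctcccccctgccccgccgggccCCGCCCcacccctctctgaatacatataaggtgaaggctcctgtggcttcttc
Il2 (chr3:37125955-37126204, minus strand): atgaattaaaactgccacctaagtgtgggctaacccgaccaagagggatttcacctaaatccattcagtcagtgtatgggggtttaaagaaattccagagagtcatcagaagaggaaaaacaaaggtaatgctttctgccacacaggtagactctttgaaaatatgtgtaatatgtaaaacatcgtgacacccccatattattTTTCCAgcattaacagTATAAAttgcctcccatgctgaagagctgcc
Nr4a1 (chr15:101266596-101266845, plus strand): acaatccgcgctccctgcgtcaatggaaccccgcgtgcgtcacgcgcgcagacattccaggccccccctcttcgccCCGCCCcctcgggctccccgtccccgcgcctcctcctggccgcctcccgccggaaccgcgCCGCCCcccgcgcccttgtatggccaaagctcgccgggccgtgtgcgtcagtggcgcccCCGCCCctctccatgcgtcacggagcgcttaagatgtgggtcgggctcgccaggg
Klf2 (chr8:72318812-72319061, plus strand): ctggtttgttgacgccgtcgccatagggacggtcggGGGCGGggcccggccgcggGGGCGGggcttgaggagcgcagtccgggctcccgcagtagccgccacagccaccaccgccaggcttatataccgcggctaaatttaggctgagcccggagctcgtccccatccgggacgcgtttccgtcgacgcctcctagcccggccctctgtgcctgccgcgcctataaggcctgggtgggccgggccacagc

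The core TGGAAA occurred 3 times before Il13, 2 times before Il4, and 1 time each before Il5, Il3 and Il2, where it lay 47 bases before the start. Il13 and Il2 also held TATAAA, at 29 and 31 bases before the start. Il9 held 1 AP-1 match, and Klf2 held 2 GC boxes and none of the other motifs. Nr4a1, with a large upward difference, held 3 GC boxes and none of the other motifs, the same kinds of match as Klf2. Over all genes with a promoter in the table, the motif shares of strongly moved genes can be set beside the background. At 4-fold, 3.62% of the measured genes were higher and 2.77% lower. Of 384 promoters of genes at least 4-fold higher, 19.8% held TGGAAA, against 16.9% of 295 promoters of genes at least 4-fold lower, 15.3% of 10540 promoters of measured genes and 18.7% of all 27025 promoters. TGANTCA was held by 8.85%, 2.03%, 4.5% and 6.85% of these groups, and TATAAA by 9.11%, 1.02%, 4.89% and 8.13%. TGACGTCA was held by 3.39%, 0.678%, 2.68% and 1.6%, and GGGCGG by 55.5%, 60%, 56.5% and 33%. A match describes letters in this window and is no measured binding site.

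Among the 16 growth factors and other cytokines measured, 9 were at least 2-fold higher and 1 lower, with a median difference of 1.38. Of the 16, 4 were above background only on the reactivated array. Among the 12 above background on both arrays 6 were higher, and the median was 0.91, less than 2-fold. The largest were Il3, Csf2 and Il2, given with the largest differences. Il21, which acts on B cells and follicular helper cells, had ratios of 0.54 and 4.48, and Tgfb1, the gene of TGF-beta 1, 0.61 and 1.96. Il16 was the gene that was lower. Csf1 had ratios of 3.37 and 3.79, with probes that differed by 0.42 to 2.43. By limma 10 of 15 members tested rose and 1 fell over the 3 DMSO pairs. Of 13 chemokine genes 9 were at least 2-fold higher and none lower (median 2.34), and by limma 10 of 11 tested rose and none fell. Of the 13, 6 were above background only on the reactivated array, and of the 7 on both arrays 5 were higher. Beside Ccl4 these included Ccl3 (0.69 and 4.29), Xcl1, a chemoattractant for cross-presenting dendritic cells (1.08 and 4.16), and Cxcl3, which was at least 5.87-fold higher. Ccl1, a ligand of CCR8 and a chemokine of Th2 cells, differed by only 0.82 by ratio. Its Cy3 level went from 8.68 to 16.83, a difference of 8.16, while its reference signal differed by 7.34 on the same spot. By Cy3 alone this was the largest difference of the chemokine genes, and by ratio it was under 2-fold. Which one follows the cells' mRNA was not tested.

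Members of the TNF family were mostly higher on the ligand side. Of 13 ligand genes 10 were at least 2-fold higher and 1 lower (median 2.76). Tnfsf11, the ligand RANKL, had ratios of 0.37 and 5.22, Tnf -1.26 and 3.5, Fasl, the death ligand, -1.66 and 2.69, and Tnfsf8, the CD30 ligand, 0.16 and 4.48. Ltb, lymphotoxin beta, had ratios of -0.35 and -2.31. By limma 10 of 13 rose and 2 fell over the 3 DMSO pairs. Of 15 receptor genes 4 were at least 2-fold higher, among them Cd40 (1.31 and 3.99) and Tnfrsf4, the costimulatory receptor OX40 (2.06 and 4.66). Tnfrsf26 (-0.29 and -2.32) and Tnfrsf1a, the main TNF receptor (-1.01 and -2.48), were lower, and the list median was 0.48. By limma 7 of the receptor genes rose and 3 fell.

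Receptors for cytokines and chemokines included higher and lower genes. Of 26 cytokine receptor chains 8 were at least 2-fold higher (30.8%, against 11.6% of all genes) and 4 lower (15.4%, near the 14% of all genes), with a median of 0.26. By limma 9 rose and 9 fell. Il12rb1, a shared chain of the IL-12 and IL-23 receptors, had ratios of 3.6 and 6.43, and the IL-1 system genes Il1rap (0.59 and 3.41), Il1r2 (0.75 and 3.37) and Il1r1 (at least 2.28-fold higher) were also higher. Lower genes were Ifngr1 and Ifngr2, both chains of the interferon gamma receptor (0.16 and -2.49, and -0.56 and -1.92), Il7r, the receptor for the survival cytokine IL-7 (-0.97 and -3.52), and Il6ra (-2.41 and -3.45). Il2ra, the high-affinity chain for IL-2, was already high at 4.57 and reached 5.44. Of 16 chemoattractant receptors 6 were higher and 6 lower, and by limma 4 rose and 7 fell. Cxcr3, a receptor linked to Th1 cells, had ratios of -0.06 and 4.11. Ccr8, a Th2 receptor (0.58 and 1.71), and Cxcr5 (0.5 and 1.56) differed less. Beside S1pr1, the lower ones included S1pr4 (0.18 and -2.56), Ccr2 (3.96 and 1.25) and Ccr7, which guides cells into lymph nodes (-2.21 and -4.81).

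Genes of costimulation and inhibition were mostly higher, and genes of the receptor complex itself were more often lower than higher. Of 21 costimulatory and inhibitory receptors and their ligands 15 were at least 2-fold higher and 4 lower (median 2.21), and by limma 13 rose and 4 fell. Beside Pdcd1lg2, the inhibitory receptors Pdcd1, which encodes PD-1 (0.05 and 4.83), and Havcr2, which encodes TIM-3 (0.44 and 4.78), and the early activation marker Cd69 (-3 and 1.09) had the largest values. The inhibitory receptor Ctla4 had ratios of 2.92 and 1.22, and the receptors Cd226, Cd28 and Slamf6 differed by -1.64, -1.39 and -1.21. Of 22 genes of the T cell receptor complex and its proximal signalling 9 were at least 2-fold lower and 1 higher (median -0.41, which became 0.03 when the spike-in RNAs set the zero point after loess). By limma 10 of these 22 fell and 5 rose. The kinases Lck and Txk had ratios of -1.75 and -3.2 and of -3.21 and -4.93, and the coreceptor Cd4 had -0.83 and -2.43. The kinase Fyn was the 1 higher gene (-0.57 and 0.88).

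**Figure D3:**
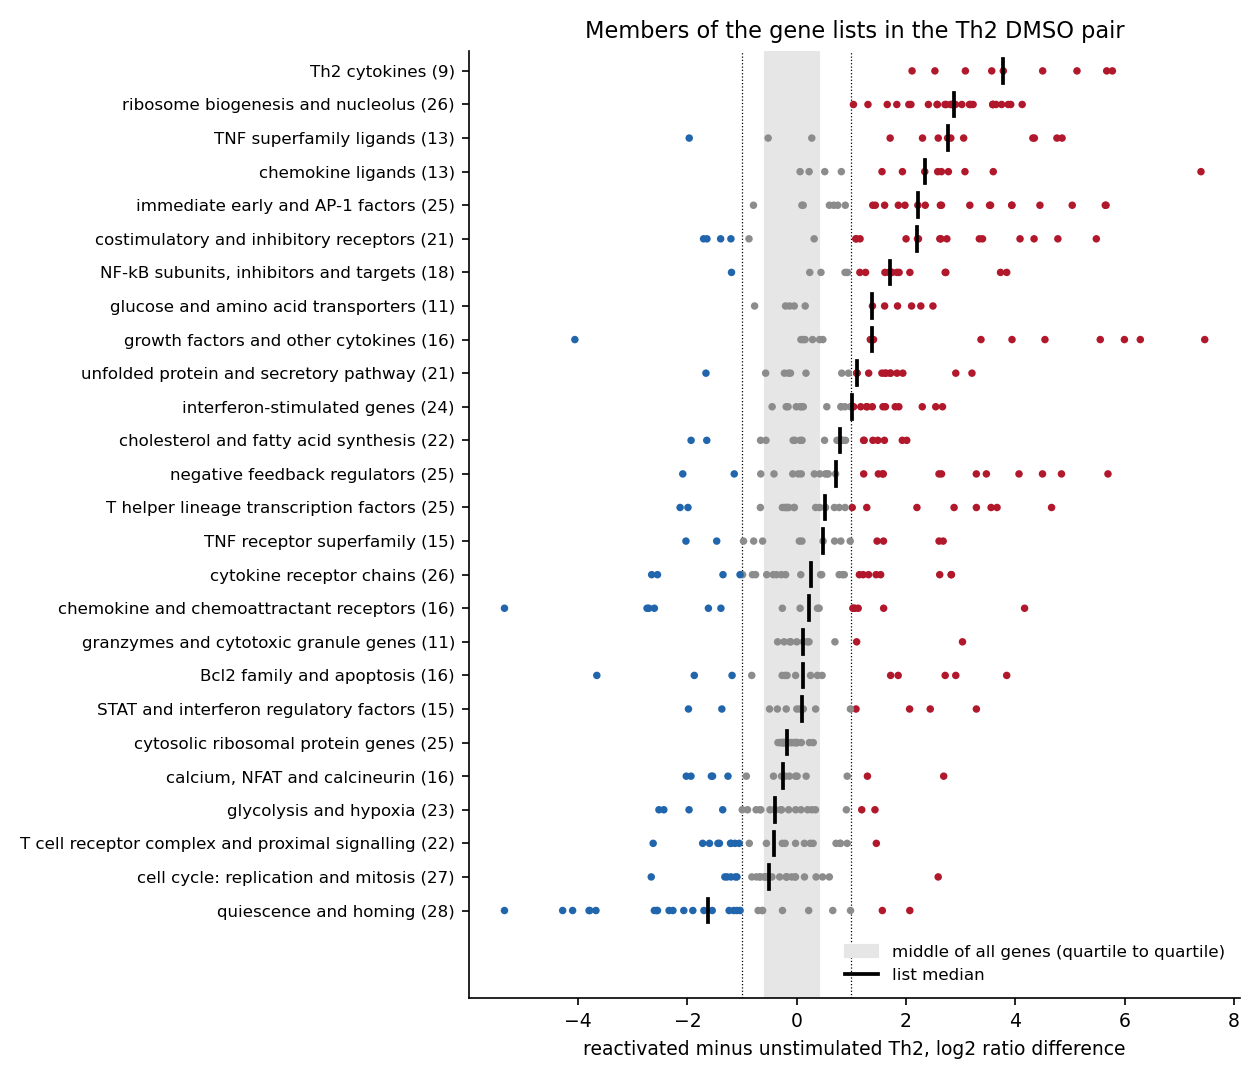
Difference of the log2 ratio, reactivated minus unstimulated Th2 cells (x axis), for the measured members of each of the 26 gene lists (y axis, number of members in parentheses), 1 point per gene from 1 array each. Red and blue points are at least 2-fold higher and lower, black bars are list medians, and the grey band runs from -0.59 to 0.4, the quartiles of all measured genes. Of the list medians 11 lie at least 2-fold above 0 and 1 lies at least 2-fold below, that of quiescence and homing genes. The 11 become 9 with median centring, where interferon-stimulated genes (0.91) and the unfolded protein list (0.97) drop out, and 10 for genes above background on both arrays.

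The transcription factors that act first after receptor triggering were mostly higher. Of 25 immediate early and AP-1 factors 18 were at least 2-fold higher and none lower (median 2.22), or 16 of the 22 above background on both arrays, and by limma 17 rose and none fell over the 3 DMSO pairs. Beside Nr4a1, Egr2 and Egr1, the growth regulator Myc had ratios of -1.18 and 3.27 and a Cy3 level that went from 8.27 to 12.86. Of 18 NF-kB subunits, inhibitors and targets 13 were higher and 1 lower (median 1.71), and by limma 12 rose and 1 fell. The target Bcl2a1d, an anti-apoptotic protein, had ratios of 0.3 and 4.14, the inhibitor Nfkbid -1.75 and 1.98, the subunit Nfkb1 -0.04 and 2.68, and the anti-apoptotic Bcl2l1 0.22 and 2.94. Tnip1, which restrains NF-kB, was the lower one (-0.24 and -1.43). Calcium and NFAT genes did not follow them. Of 16 members 2 were higher and 5 lower, and by limma 2 rose and 7 fell. The calcium channel Orai1 had ratios of -0.31 and 2.38 and Nfat5 -0.08 and 1.21, while the calcium sensor Stim1 (0.13 and -1.89) and the factors Nfatc2 (0.27 and -1.67) and Nfatc3 (-0.35 and -1.89) were lower. Nfatc1 depended on the probe, with differences of -1.56 by its brightest probe and 1.64 by another.

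Inhibitors of the same pathways were partly higher. Of 25 negative feedback regulators 12 were at least 2-fold higher and 2 lower (median 0.71), and by limma 13 rose and 3 fell. Spry1 (1.37 and 7.07) and the MAP kinase phosphatases Dusp4 (0.69 and 5.53) and Dusp6 (-1.39 and 2.67) act on the Ras and ERK pathway, and Rgs16 (1.22 and 5.72) on G protein signalling. The diacylglycerol kinases Dgka (-0.82 and -2.91) and Dgkz (-0.01 and -1.15), which end the Ras signal by another route, were lower. The spot of Dusp5 was marked as an outlier by the scanner software on the reactivated array, so it has no value here.

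Genes of quiescence and homing were the only list with a median at least 2-fold lower. Of 28 members 19 were at least 2-fold lower and 2 higher (median -1.62, and -1.19 when the spike-in RNAs set the zero point after loess), and by limma 18 fell and 3 rose over the 3 DMSO pairs. Their leading members S1pr1, Pik3ip1, Klf2 and Tecpr1 are described with the largest differences. The higher ones were Slfn2, a Schlafen protein needed for T cell quiescence (-0.19 and 1.88), and Btg1, an antiproliferative gene (-1.94 and -0.37). This list, like all gene lists here, was assembled with earlier results of these data known.

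Genes for making ribosomes were higher as a whole list. All 26 genes of ribosome biogenesis and the nucleolus were at least 2-fold higher, between 1.04 and 4.12 (median 2.87), and all 26 rose by limma over the 3 DMSO pairs. Nolc1, a nucleolar phosphoprotein, had ratios of -0.94 and 3.19, Polr1b, a subunit of RNA polymerase I, -1.25 and 2.66, and the assembly factors Ppan -2.08 and 1.79 and Rrs1 -1.14 and 2.61. Each of these 4 was below the naive level before reactivation and above it afterwards. The 25 ribosomal protein genes, by contrast, had differences between -0.34 and 0.3, and none passed 2-fold or the limma test. Their median was -0.17, and it turned to 0.27 when the spike-in RNAs set the zero point after loess.

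Other growth and metabolic genes were mixed. Of 11 glucose and amino acid transporters 6 were at least 2-fold higher and none lower (median 1.39). By limma 6 of 10 tested rose and 3 fell over the 3 DMSO pairs. The higher ones included the amino acid transporters Slc7a1 (-0.64 and 1.86), Slc7a5 (0.51 and 2.78) and Slc1a5 (-0.13 and 1.98) and the partner chain Slc3a2 (-0.15 and 1.69). Of 23 glycolysis and hypoxia genes 2 were higher and 4 lower (8.7% and 17.4%, against 11.6% and 14% of all genes). By limma 2 rose and 11 fell over the 3 DMSO pairs. Their median was -0.39, and 0.05 when the spike-in RNAs set the zero point after loess. Pfkfb3 (0.04 and 1.47), which stimulates glycolysis, and Hif1a (1.6 and 2.79) were higher, while Bnip3 (4.74 and 2.22), Pdk1 (-0.21 and -2.64), Pfkm (0.58 and -1.4) and Pfkfb4 (-0.03 and -1.39) were lower. Of 22 cholesterol and fatty acid genes 7 were higher and 2 lower, and by limma 9 rose and 4 fell. The sterol enzymes Cyp51 (-0.19 and 1.82) and Idi1 (0.83 and 2.44) and the citrate enzyme Acly (-0.24 and 1.69) were higher. Scd2, a fatty acid desaturase (1.89 and -0.04), and Mvk, mevalonate kinase (0.94 and -0.71), were lower.

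Of 27 cell cycle genes 6 were at least 2-fold lower and 1 higher, and by limma 15 fell and 1 rose. Their median was -0.52, and -0.08 when the spike-in RNAs set the zero point after loess. Mki67, a marker of cycling cells, had ratios of 6.51 and 5.39, Birc5 6.56 and 5.24, Bub1 5.46 and 4.26 and Cenpa 3.24 and 1.97. The cyclins of early G1 differed in direction, with Ccnd2 at -0.9 and 1.69 and Ccnd3 at 0.38 and -2.29. Of 21 genes of the unfolded protein response and secretory pathway 13 were higher and 1 lower (median 1.1), and by limma 12 rose and 3 fell. The chaperone Hspa5 had ratios of -0.35 and 2.85, and the stress response genes Chac1 0.95 and 3.86, Asns 4.44 and 6.38 and Atf4 -0.85 and 0.98, while Trib3 was lower (1.78 and 0.12). Of 16 Bcl2 family and apoptosis genes 5 were higher and 3 lower, and by limma 5 rose and 5 fell. The higher ones that protect cells were Bcl2a1d, Bcl2l1 and Cflar, the inhibitor of death receptor signalling (-1.86 and 1.04). The death-promoting genes Bbc3, which encodes PUMA (0.92 and -2.74), Bad (1.31 and -0.56) and Bmf (at least 2.16-fold lower) were lower, and the death-promoting Bid was higher (-1.18 and 0.68). Of 11 granule genes Srgn, the proteoglycan of granules (1.17 and 4.2), and the protease inhibitor Serpinb9 (-0.42 and 0.68) were higher and none was lower. By limma 4 of 12 granule genes tested rose and none fell.

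Transcription factors of other helper lineages were among the higher genes in these Th2 cells. Tbx21, which encodes the Th1 factor T-bet, had a ratio of -0.02 in unstimulated and 4.64 in reactivated Th2 cells (25.3-fold higher), and its Cy3 level went from 6.43 to 10.71. In Th1 cells its ratio was 5.41 and 6.11 at 6 hr and 5.55 and 6.36 at 24 hr, so that reactivated Th2 cells stayed below every Th1 array. Eomes, a related factor, had ratios of -1.64 and 1.91, Zbtb32, a repressor of cytokine genes, 2.47 and 6.14, and Irf4, which Th2 cells need for cytokine expression, 1.93 and 5.21. Id3 (0.29 and -1.85) and the CD4 lineage factor Zbtb7b (-0.99 and -2.98) were lower. Of 25 lineage factors 8 were at least 2-fold higher and 2 lower (median 0.52), and by limma 8 rose and 4 fell. Of 15 STAT and interferon regulatory factors 4 were higher and 2 lower in the Th2 pair, whereas by limma over the 3 DMSO pairs 3 rose and 6 fell. Stat5a, the IL-2 signalling factor, had ratios of 0.12 and 2.56 and Irf8 1.31 and 3.37, whereas Stat4, the IL-12 signalling factor, had -0.58 and -2.56 and Stat5b -0.63 and -2.

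Interferon-stimulated genes differed in direction between the Th2 and Th1 pairs. Of 24 measured members 12 were at least 2-fold higher and none lower in the Th2 DMSO pair (median 1.01), whereas none was higher in either Th1 pair, 11 were at least 2-fold lower at 6 hr and 9 at 24 hr (medians -0.87 and -0.87). With 50 nM JQ1 the Th2 median was 0.46. Isg15, a ubiquitin-like modifier, had ratios of -0.72 and 1.94, Gbp2, an interferon-induced GTPase, -0.2 and 2.34, Irgm1, another such GTPase, -0.57 and 1.73, and Usp18, a brake on interferon signalling, -2.58 and -0.72. Gbp2 in Th1 cells went the other way, from 3.42 to 2.45 at 6 hr and from 3.03 to 2.46 at 24 hr. The median ratio of the 24 genes was -0.79 in unstimulated and -0.18 in reactivated Th2 cells, against -0.87 and -1.82 in Th1 cells at 6 hr and -0.75 and -1.69 at 24 hr. For 23 of the 24 genes the Th2 difference was above both Th1 differences. With 5 pairs, which add those with 50 nM JQ1, the difference between the responses passed an adjusted p of 0.05 by limma for 19 of the 24. All 19 had the Th2 response above the Th1 response. Over all genes tested, 4.05% passed in that direction. The fit of the 3 DMSO pairs has no spread of the Th2 response, so its calls are not counted here. Irf1, a transcription factor induced by interferon gamma, had the same order, with ratios of -1.42 and -0.34 in Th2 cells and a difference of -1.93 and -2.52 in the Th1 pairs. The list's own limma result for reactivation over the 3 DMSO pairs was 1 gene that rose and 5 that fell.

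**Figure D4:**
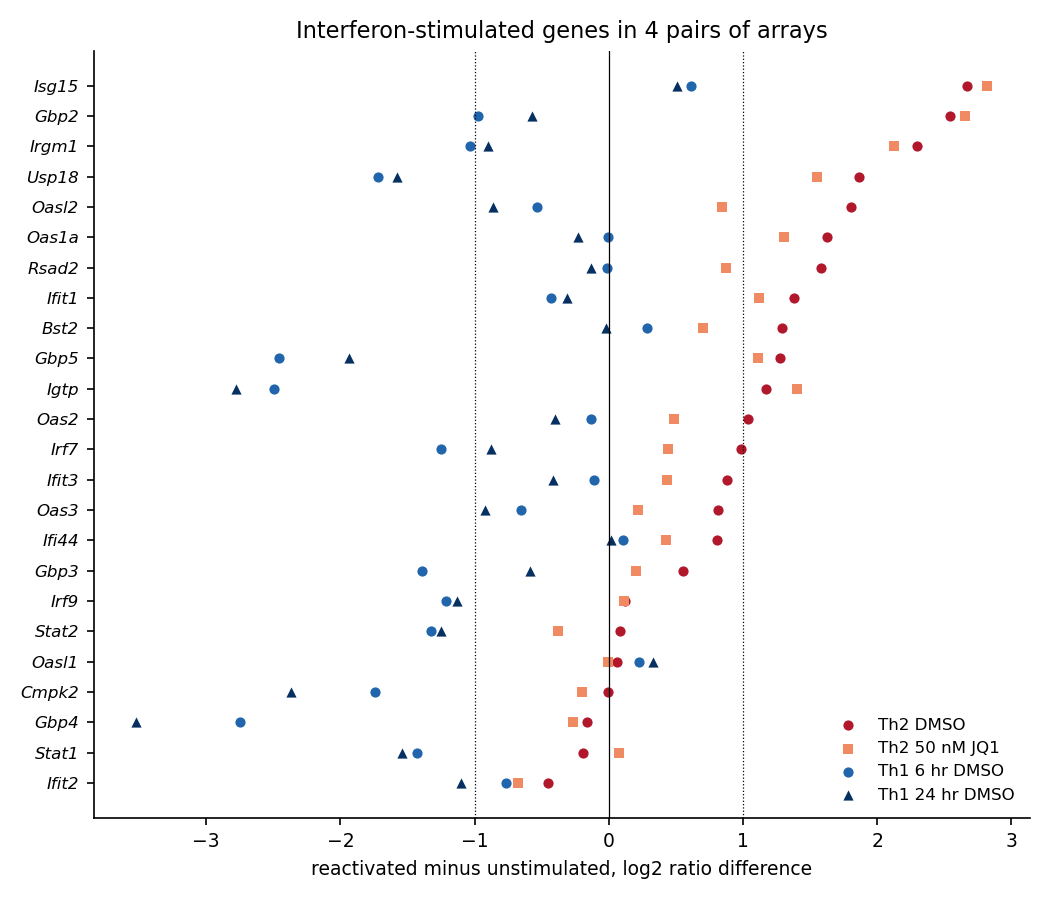
Difference of the log2 ratio, reactivated minus unstimulated (x axis), for each of 24 interferon-stimulated genes (y axis) in the Th2 DMSO pair, the Th2 50 nM JQ1 pair and the Th1 DMSO pairs at 6 hr and 24 hr, 1 array per condition. Dotted lines mark 2-fold. For 23 of the 24 genes the Th2 DMSO point lies to the right of both Th1 points.

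The difference between the Th2 and Th1 responses was tested gene by gene by limma. With the 3 DMSO pairs, 55 of 12526 genes had a larger response in Th2 cells (0.439%) and 9 a smaller one (0.0719%) at an adjusted p below 0.05, and 1371 had an unadjusted p below 0.05. Adding the Th2 and Th1 pairs with 50 nM JQ1 to give 5 pairs, which have 3 residual degrees of freedom, the counts were 521 of 12869 (4.05%) and 419 (3.26%). Of the 521, 336 were at least 2-fold higher in the Th2 DMSO pair and 7 lower, and of the 419, 269 were lower and 22 higher. The Th2 DMSO pair is part of the fit, so these counts were in part set by the calls themselves. Of all measured genes 11.6% were at least 2-fold higher in that pair and 14% lower. The 5-pair counts depended on single pairs. They were 93 and 27 without the Th2 DMSO pair, 125 and 45 without the Th2 50 nM JQ1 pair, 242 and 141 without the Th1 6 hr pair, 384 and 288 without the Th1 50 nM JQ1 pair, and 1179 and 1308 without the Th1 24 hr pair. In the fit of the 3 DMSO pairs the spread came from the Th1 pairs and the pooled variance. Its calls rest on 1 unreplicated Th2 difference per gene. That comparison also sets 1 Th2 pair of unknown time against Th1 pairs of 2 times. Time and cell type therefore cannot be told apart for genes that differ with time.

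The 5 genes with the largest difference in favour of Th2 cells were Il9, Ifng, Tbx21, Tgtp2 and Cd69. For Il9 the difference was 5.24, for Tbx21 3.91 (SE 0.26, adjusted p = 0.00863), for Tgtp2, an interferon-induced GTPase, 3.88 (SE 0.26, adjusted p = 0.00863), and for Cd69 3.84 (SE 0.4, adjusted p = 0.018). The call of Cd69 was lost without the pair block (adjusted p = 0.0958) and without the filter on dim genes (adjusted p = 0.0542). Il9 and Tbx21 are given above. Tgtp2 had ratios of -2.12 and -0.51 in Th2 cells, and in Th1 cells it differed by -2.2 and -2.33. Cd69 had ratios of -3 and 1.09 in Th2 cells, but of 1.19 and 0.99 in Th1 cells at 6 hr and 0.15 and 0.83 at 24 hr. So the Th2 cells started far lower than the Th1 cells and reached about the same ratio. Cxcr3 was similar in its starting point, with a difference between the responses of 3.58 (SE 0.27, adjusted p = 0.00863).

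Ifng, the signature cytokine of Th1 cells, needs both channels. Its ratio in Th2 cells went from 0.65 to 6.2, and its Cy3 level from 6.62 to 12.16. In Th1 cells the Cy3 level went from 14.09 to 19.4 at 6 hr and from 13.97 to 19.15 at 24 hr, far above the Th2 level on every array. The reference signal on the same spots went from 6.94 to 10.81 and from 6.88 to 10.82, and the Th1 ratio therefore differed by only 1.44 and 1.25. The difference between the responses was 4.21 by ratio (SE 0.26, adjusted p = 0.00863) but 0.29 by Cy3 alone (adjusted p = 0.735), and with 5 pairs it was 4.09 by ratio and -0.01 by Cy3 alone (adjusted p = 0.989). By Cy3 alone a different response of Ifng in both cell types was thus not detected.

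The 5 genes with the largest difference against Th2 cells were Pdlim4, Ccl9, Tdrp, Il1rl1 and Tulp4. Pdlim4 had ratios of -0.58 and -4.36 in Th2 cells and of -5.68 to -6.49 on the 4 Th1 DMSO arrays, where it was already far below the naive level. The difference between the responses was -3.56 (SE 0.3, adjusted p = 0.0105). Tdrp followed the same pattern, with -0.93 and -4.2 in Th2 cells and a difference between the responses of -3.27 (adjusted p = 0.018). Ccl9, a chemokine for myeloid cells, was at least 2.3-fold higher in Th2 cells and differed by 5.31 and 4.85 in the Th1 pairs. Tulp4, a tubby-like protein, was lower in Th2 cells (-0.04 and -1.21) and differed by 1.58 and 1.52 in Th1 cells. Il1rl1, the receptor of IL-33 and a marker of Th2 cells, was already high in Th2 cells at 3.47 and reached 3.91, while in Th1 cells it went from 2.42 to 5.51 at 6 hr and from 2.48 to 6.29 at 24 hr. Its difference of -3.01 (adjusted p = 0.0299) was by its brightest probe. Its other probes differed by up to 2.15 in the Th2 pair, and with the mean of all probes the difference was -2.14 with an adjusted p of 0.0784. The call of Il1rl1 was also lost by Cy3 alone (0.0752), with the deposited ratios (0.0889), without the filter (0.068) and without the pair block (0.111), as adjusted p by limma. Without the block the calls of Pdlim4 (0.073), Tdrp (0.189) and Tulp4 (0.0594) were lost too.

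**Figure D5:**
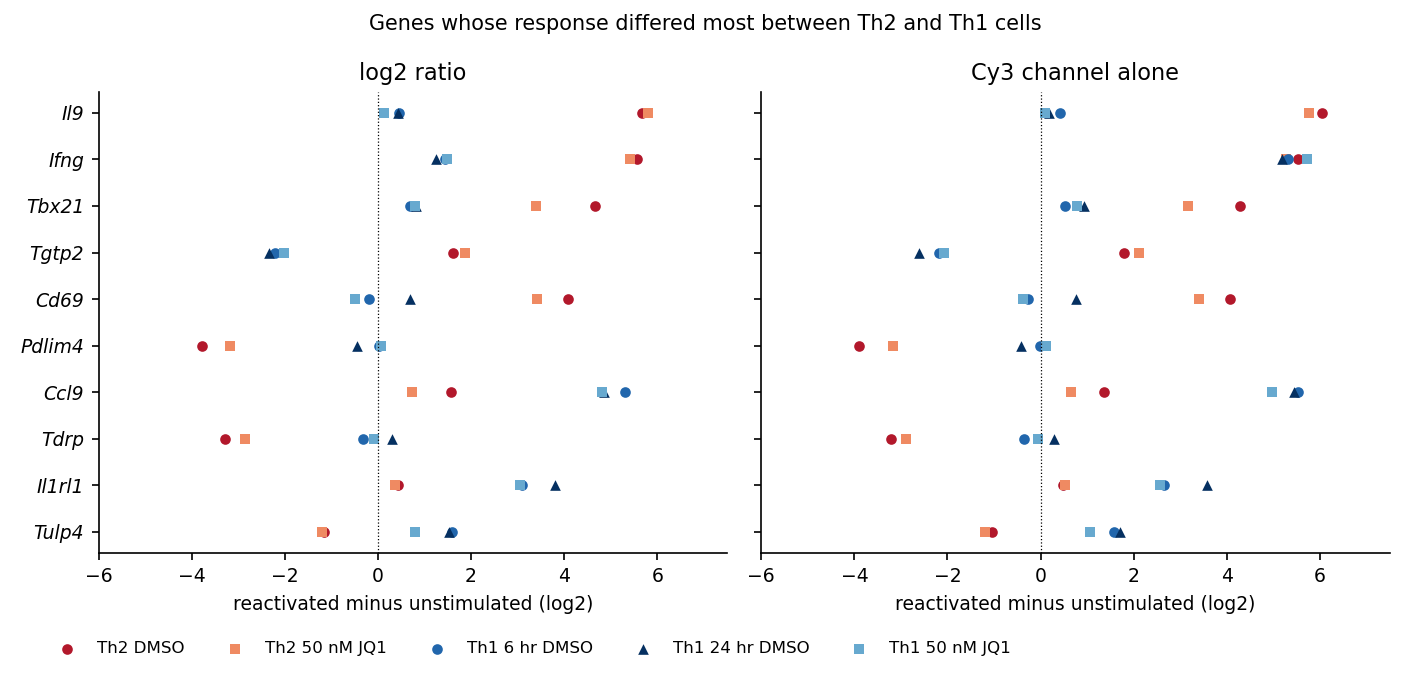
Difference between reactivated and unstimulated cells (x axis, log2) for the 10 genes with the largest differences between the Th2 and Th1 responses, by ratio (left) and by the Cy3 channel alone (right), in 5 pairs of arrays, 1 array per condition. The Th1 points of Ifng lie between 1.25 and 1.49 by ratio on the left and among the Th2 points on the right.

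Some probes were named only by a genome position, and whether they lie outside named genes was not tested. Of 6917 such probes above background on at least 1 array, 285 (4.12%) were at least 2-fold higher and 308 (4.45%) lower, against 11.6% and 14% of named genes. The gene and position probes differ in brightness, and the part of that in these shares was not tested. Where named genes had several probes above background, which was so for 3436 of the measured genes, only 4 had probes at least 2-fold apart from 0 in opposite directions.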

How the data were processed

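RNA was hybridised to 24 Agilent arrays in 2 colours, with 1 array for each condition. The authors deposited scanner files with the median intensity of each spot and its local background in both channels, made with Agilent Feature Extraction 10.7.1.1 on an mm9 grid. Those deposited files also gave a log10 ratio computed by the scanner software, and the authors deposited a table of log2 ratios whose normalization is not given in the sources used here. Using limma 3.58.1 (R 4.3.3), background was corrected by normexp with an offset of 50 and each array then underwent loess normalization. Controls and outlier spots were left out. Of 55681 probes, 26437 carried 1 of 20028 symbols, matched by accession or name to a RefSeq table (GRCm38.p6). A gene was read from its brightest probe. It entered the pair when Cy3 was well above background on at least 1 of both arrays, and a fit when it was so on at least 3 arrays. Reactivation was fitted by limma's lmFit and eBayes over 3 DMSO pairs with the pair as a block, and its difference between Th2 and Th1 cells within pairs, with Benjamini-Hochberg adjustment at 0.05. p-values measure the spread between these arrays, since the labels do not say that pairs came from separate cultures. In the Th2 minus Th1 fit of the 3 DMSO pairs they hold the spread of the Th1 pairs and none of the Th2 pair. Precision is limited by the number of arrays. Named genes were the 15 with the largest difference each way above background on both arrays, the 5 with the largest bound each way, the 5 with the largest called Th2 minus Th1 difference each way, up to 4 per list and direction, and Il4, Il5, Il13 and Gata3. Il6, Il10, Il21, Il24, Il2ra, Tgfb1, Csf1, Ccl1 and Mki67 lie outside this rule and were chosen after their values were seen. A few genes that the rule names are not reported here. The members and lists were chosen with earlier results of these data known. Alternatives changed the background correction, scaling, channel, source of values, filter, gene summary, threshold, block and pairs.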

Additional observations from a re-analysis of the deposited data

Results flagged for a closer look

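The 10 genes flagged are the 5 each way with the largest Th2 minus Th1 difference among those called by limma with the 3 DMSO pairs. They are not all the genes called. In that fit the Th2 response is 1 pair and has no spread of its own. The difference was 5.24 for Il9, 4.21 for Ifng, 3.91 for Tbx21, 3.88 for Tgtp2 and 3.84 for Cd69, where the Th2 response was the higher one. For Ifng this holds by ratio and not by Cy3 alone, which gave 0.287 (adjusted p = 0.735 by limma), nor with the deposited ratios, which gave 0.782 (adjusted p = 0.332). The deposited ratios are no independent second ratio here: across genes, which are not independent replicates, their difference in the Th2 pair had r = 0.9975 with the Cy3 difference and r = 0.9835 with the ratio difference. The difference between the responses was -3.56 for Pdlim4, -3.52 for Ccl9, -3.27 for Tdrp, -3.01 for Il1rl1 and -2.72 for Tulp4, where the Th2 response was the lower one. Ccl9 was above background in Th2 cells only after reactivation, so its value is not exact. Tgtp2 and Tulp4 moved in opposite directions in the Th2 pair and in both Th1 pairs.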

How the results depend on the processing

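The number of genes at least 2-fold higher (1521) and lower (1839) in the Th2 pair became 2212 and 1079 with spike-in centring, 2659 and 959 when loess was followed by a spike-in shift, 2169 and 2768 with the scanner software's log ratio, 2585 and 3305 at 1.5-fold and 477 and 365 at 4-fold. Of the 365 genes at least 4-fold lower, 26.8% were so in Th1 cells at 6 hr. At 4-fold, 6 gene lists had a median above the threshold and 0 below it. Over the DMSO pairs, the genes that fell by limma were 2301 with spike-in centring and 2283 with the spike-in shift, and leaving out 1 pair gave 1972 to 2297 higher and 2542 to 3122 lower. The share of genes repeated at 50 nM JQ1 stayed within 1.5 times under each of its alternatives. Genes outside the filter differed by at most 0.604, so leaving the filter out added none. Of 324 recomputed values of named genes in the pair 172 moved by more than the SD of the reference channel (0.17), as did 69 of 156 list medians. Among the named genes recomputed for the pair, only Il1rl1 changed sign, to -0.225 with the log ratio of the scanner software.

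The counts of genes that differed between the Th2 and Th1 responses (55 with a larger and 9 with a smaller Th2 response) depended on the processing, and the cause was not tested. They became 83 (larger) without background correction, 209 and 159 with median centring, 230 and 39 with spike-in centring, 665 and 72 with the spike-in shift, and 87 and 22 with the mean of all probes. The deposited ratios gave 17 smaller ones, no filter 4, and no pair block 22 and 1. The scanner software's log ratio gave 0 and 0 by limma, with 1162 genes at an unadjusted p below 0.05. With 5 pairs they were 521 and 419, and leaving out 1 of these gave 93 to 1179 and 27 to 1308. Settings chosen after seeing the data gave, with 5 pairs, 373 and 279 (median centring), 677 and 180 (spike-in centring), 1061 and 127 (spike-in shift) and 509 and 455 (Cy3 alone). Ifng turned to -0.006 (Cy3 alone, 5 pairs) and Ccl9 to 2.49 (scanner software's log ratio). All 10 named genes lost the call with the scanner software's log ratio, with adjusted p from 0.132 to 0.569. Its value for Il9 was 1.27, and for the named genes other than Il9, Ifng and Ccl9 it was at least as far from 0 as the value in the report. Without the pair block Cd69, Pdlim4, Tdrp, Il1rl1 and Tulp4 lost it (adjusted p from 0.0594 to 0.189). These values are spot intensities and not read counts, and how far the background of dim spots limits them was not tested.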
